A study of Mus musculus with 14 samples.

Results

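Left ventricles from Sham-operated mice of both genotypes were compared to give the baseline on which pressure overload acted. The comparison used 6 of the 14 arrays in the study, 3 labelled CXCR5-/- Sham and 3 WT Sham, and all 19937 genes that a probe set with 1 gene symbol represented. The series as a whole crossed genotype (WT or CXCR5-/-) with operation (Sham, or AB, a banding of the aorta that loads the left ventricle with pressure), and the 8 AB arrays show the genotype difference in other mice, share the estimate of the spread and count in the choice of probe sets. All mice were male. WT mice were C57BL/6 from Taconic. CXCR5-/- mice lacked the receptor in every tissue and were on a C57BL/6 background, reached by 8 generations of backcrossing. Their allele was made in D3 embryonic stem (ES) cells, which derive from another strain than C57BL/6, and put a neomycin resistance gene in place of the coding region. Sham mice underwent the operation but no band was tied, and hearts were taken 3 weeks later, with the atria and the right ventricle cut away. The ages of the mice are not given in the sources used here. Each array held RNA of 1 mouse.

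CXCR5 is a G protein-coupled chemokine receptor, and CXCL13 is its ligand. On B cells and follicular helper T cells the pair directs migration into the follicles of lymph nodes and spleen. The left ventricle consists by volume mostly of cardiomyocytes, with endothelial cells, fibroblasts, pericytes and resident macrophages between them and few lymphocytes.

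Values are log2 levels after robust multi-array average (RMA), which corrects background, brings all arrays to 1 distribution and summarises the probes of a gene, so a difference of 1 is a doubling. A gene passed where its Benjamini-Hochberg adjusted p in limma was under 0.05. Differences are given as CXCR5-/- minus WT with their standard error (SE). The Sham arrays correlated with one another at 0.984 to 0.993 over all probe sets, and their medians lay between 5.19 and 5.28. Over all genes the median 95% confidence interval of the difference reached 0.25 to either side, and 98.6% of genes had an interval narrower than 0.5 to either side.

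The targeted gene was read first. The Cxcr5 probe set stood at 4.09, 4.11 and 3.85 on the 3 arrays labelled CXCR5-/- and at 3.23, 3.23 and 3.24 on the WT arrays. The arrays labelled CXCR5-/- were thus all higher, by 0.78 (SE 0.13, adjusted p = 0.021). The probe set was dim, with a mean level of 3.69 over all arrays, at the 16.4th percentile of all genes. The difference therefore lay near the low end of the scale. The position of this probe set relative to the replaced sequence is not given in the sources used here, so its level is no check of the labels, and directions below are those of the libraries labelled CXCR5-/-. The call was lost when any one of the 6 Sham arrays was left out, and the difference then ranged from 0.74 to 0.87.

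After Sham, 8 of 19937 genes passed (0.0401%), 4 higher and 4 lower on the arrays labelled CXCR5-/-. All 8 lie on chromosome 9, the chromosome of Cxcr5. Beside Cxcr5 the higher genes were Tmprss13, Ephb1 and Fam81a, and the lower genes were Nxpe4, Scn4b, Pts and Dixdc1. Of the 8, Cxcr5 alone was on one of the immune gene lists described below.

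Nxpe4, a member of the neurexophilin and PC-esterase domain family, gave the largest difference of the genes that passed. Its levels were 3.85, 3.89 and 4.13 on the CXCR5-/- Sham arrays and 6.20, 6.30 and 6.45 on the WT Sham arrays. It was 5.13-fold lower on the former (difference -2.36, SE 0.11, adjusted p = 7.7e-10). Scn4b encodes the beta-4 subunit of voltage-gated sodium channels, which in cardiomyocytes modifies the gating of the sodium current. Its levels were 5.06, 5.26 and 5.06 in CXCR5-/- Sham and 6.60, 6.38 and 6.82 in WT Sham hearts, a difference of -1.47 (SE 0.17, adjusted p = 0.00056). Pts, the gene of 6-pyruvoyltetrahydropterin synthase, an enzyme of tetrahydrobiopterin synthesis, was at 6.61, 6.49 and 6.41 against 7.95, 7.45 and 7.58 in the same order. The difference was -1.16 (SE 0.16, adjusted p = 0.0093). Dixdc1, which encodes a DIX domain protein of Wnt signalling, was at 4.84, 4.65 and 4.72 against 5.41, 5.39 and 5.33 (difference -0.64, SE 0.10, adjusted p = 0.016). For each of these 4 genes the lowest WT array stood above the highest CXCR5-/- array.

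Tmprss13, a membrane-anchored serine protease, showed the largest increase. It was at 6.36, 6.76 and 6.17 in CXCR5-/- Sham and at 5.0, 4.72 and 5.01 in WT Sham hearts, 2.87-fold higher in the former (difference 1.52, SE 0.14, adjusted p = 4.98e-05). Fam81a was at 6.88, 7.27 and 7.20 against 6.10, 6.44 and 6.45 (difference 0.79, SE 0.12, adjusted p = 0.020). Ephb1, a receptor tyrosine kinase for membrane-bound ephrin-B ligands, was at 5.97, 6.20 and 6.35 against 5.40, 5.48 and 5.27 (difference 0.79, SE 0.12, adjusted p = 0.015). Ephb1 had a second, dimmer probe set, on which the groups overlapped, at 4.70, 4.50 and 4.50 against 4.91, 4.38 and 4.51. With the mean of both probe sets the difference in Ephb1 was 0.38 and no longer passed.

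Nxpe4, Tmprss13 and Scn4b passed whichever Sham array was left out. Pts and Ephb1 each lost their call without any one of 4 of the 6 arrays, Dixdc1 and Fam81a without any one of 5, and Cxcr5 without any of the 6. The differences themselves stayed between -1.26 and -1.01 for Pts, 0.70 and 0.89 for Ephb1, -0.69 and -0.60 for Dixdc1 and 0.68 and 0.91 for Fam81a. In a fit of the 6 Sham arrays alone, which changes the error and not these differences, Ephb1, Dixdc1 and Fam81a did not pass (adjusted p = 0.11, 0.11 and 0.29). The count of 8 became 4 without CXCR5-/- Sham 2 (3 of the 8 genes and Ccl19), 3 without CXCR5-/- Sham 3, 3 without WT Sham 1, 5 without WT Sham 2 and 3 without WT Sham 3, and it was 7 without CXCR5-/- Sham 1.

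**Figure D1:**
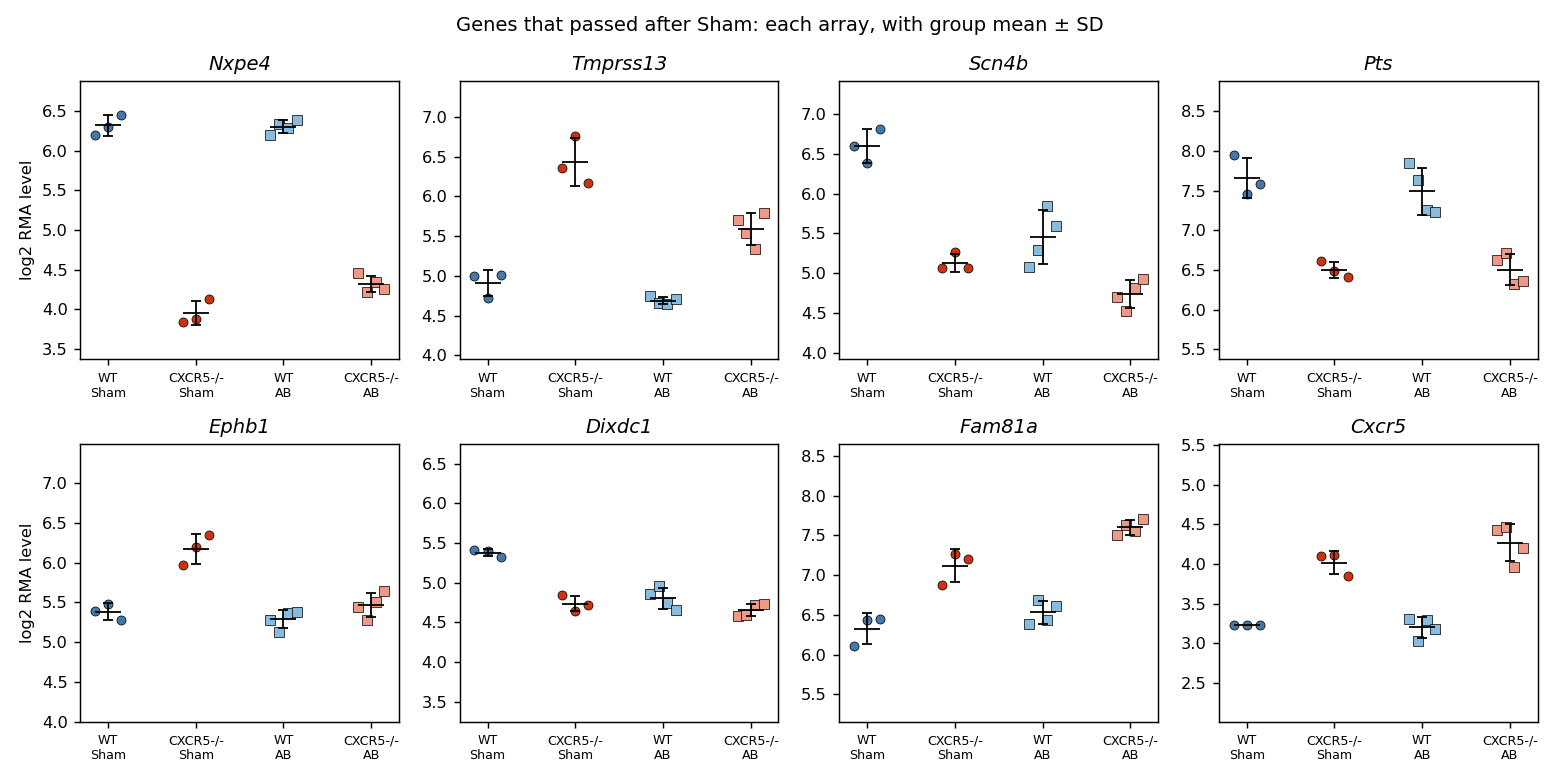
Log2 RMA level (vertical axis, 3.5 log2 units in each panel) of the 8 genes that passed after Sham, in WT Sham, CXCR5-/- Sham, WT AB and CXCR5-/- AB hearts. Each point is 1 array, horizontal bars are group means and error bars are SD. The Sham groups do not overlap in any panel, and the AB groups overlap for Ephb1 and Dixdc1.

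The AB arrays measured the genotype difference in 8 other mice, with no array in common, although both comparisons share 1 estimate of the spread. In all, 9 genes (0.0451%) passed after AB, 7 of them on chromosome 9. That count was 5 without CXCR5-/- AB 2, 4 without CXCR5-/- AB 3 and 34 without CXCR5-/- AB 4. All 8 genes that passed after Sham differed in the same direction after AB, and 5 of them passed there (Nxpe4, Tmprss13, Pts, Fam81a and Cxcr5). The AB groups overlapped for Ephb1 and Dixdc1. Nxpe4 was at 4.22 to 4.45 in CXCR5-/- AB and at 6.20 to 6.38 in WT AB hearts, a difference of -1.98 (SE 0.09, adjusted p = 1.3e-09). Fam81a and Cxcr5 both differed by 1.07 after AB.

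For 6 of the 8 genes, all but Fam81a and Cxcr5, the difference was nearer to 0 after AB than after Sham. The genes had been chosen by their Sham difference, so a smaller AB difference can follow from that choice alone. The same Sham values enter the unadjusted p values below. Scn4b differed by -0.72 after AB (adjusted p = 0.12), and all WT AB hearts, at 5.08 to 5.85, were below the WT Sham hearts. Ephb1 differed by 0.18 after AB (95% confidence interval -0.04 to 0.39) and Dixdc1 by -0.15 (-0.33 to 0.03). Tmprss13 differed by 0.91. In the test of the Sham difference against the AB difference the unadjusted p values were 0.0032 for Scn4b, 0.0011 for Ephb1, 0.0014 for Dixdc1, 0.0044 for Tmprss13, 0.015 for Nxpe4 and 0.44 for Pts. After adjustment over all genes no gene passed that test in limma (0% of 19937, smallest adjusted p = 0.804), while 574 genes had an unadjusted p under 0.05, so a larger difference after Sham was not shown for any of them.

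The upstream sequences of Nxpe4 and Scn4b are shown because these genes gave the largest decreases among those that passed. They are the 250 bases before the annotated start in the RefSeq reference (GRCm38.p6, plus strand, chr9:48361791-48362040 for Nxpe4 and chr9:45138374-45138623 for Scn4b), and were not read from these mice. Capitals mark matches to TATAAA or CCAAT on either strand, which do not overlap each other.

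Nxpe4: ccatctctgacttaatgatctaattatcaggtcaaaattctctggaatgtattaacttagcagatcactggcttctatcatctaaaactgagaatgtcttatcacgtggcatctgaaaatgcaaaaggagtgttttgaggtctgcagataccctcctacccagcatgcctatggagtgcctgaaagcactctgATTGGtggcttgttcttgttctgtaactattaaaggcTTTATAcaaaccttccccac

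Scn4b: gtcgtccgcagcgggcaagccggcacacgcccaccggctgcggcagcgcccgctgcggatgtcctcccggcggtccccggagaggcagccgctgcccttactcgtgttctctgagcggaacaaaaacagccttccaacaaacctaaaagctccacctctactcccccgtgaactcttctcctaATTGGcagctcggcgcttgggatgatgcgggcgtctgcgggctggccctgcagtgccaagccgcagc

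Nxpe4 had 1 match to each motif and Scn4b 1 match to CCAAT, each on the reverse strand. Among all 32851 listed promoters 12.4% held TATAAA and 33.8% held CCAAT within the same window. The reference table listed promoters for 6 of the 8 genes, of which 1 held TATAAA (Nxpe4) and 3 held CCAAT (Nxpe4, Scn4b and Ephb1). These counts take a gene if any of its promoters matched, whereas the shares above count single promoters. A match is a run of letters and does not show that a factor binds there.

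Genes on chromosome 9 were then set beside those of the other chromosomes. Of 1165 chromosome 9 genes, 75 (6.44%) had an unadjusted p under 0.05 after Sham, against 397 of 18690 (2.12%) elsewhere and 2.38% of all genes. On the other chromosomes with at least 100 genes the share ran from 1.47% (chromosome 15) to 2.94% (chromosome 1). Of the 75 genes, 64 (85.3%) differed in the same direction after AB, against 227 of the 397 others (57.2%). These shares are descriptions, since neighbouring genes are not independent.

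The genes were also placed by their order along the chromosome, counted in measured genes from Cxcr5. Tmprss13 and Scn4b are the genes 22 and 19 places to its distal side, Nxpe4 44, Pts 64, Dixdc1 73, Fam81a 285 and Ephb1 462. Among the 50 genes on the proximal side nearest Cxcr5, 16% had an unadjusted p under 0.05, and among the nearest 50 on the distal side 14% did. Farther out on the distal side the share was 10% at 51 to 100 places, 7% over the next 100 places, 11.5% over the 200 places after those, and 3.03% beyond 400 places. On the proximal side it was 4% at 51 to 100 places, 6% over the next 100 and 2.49% beyond 200.

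**Figure D2:**
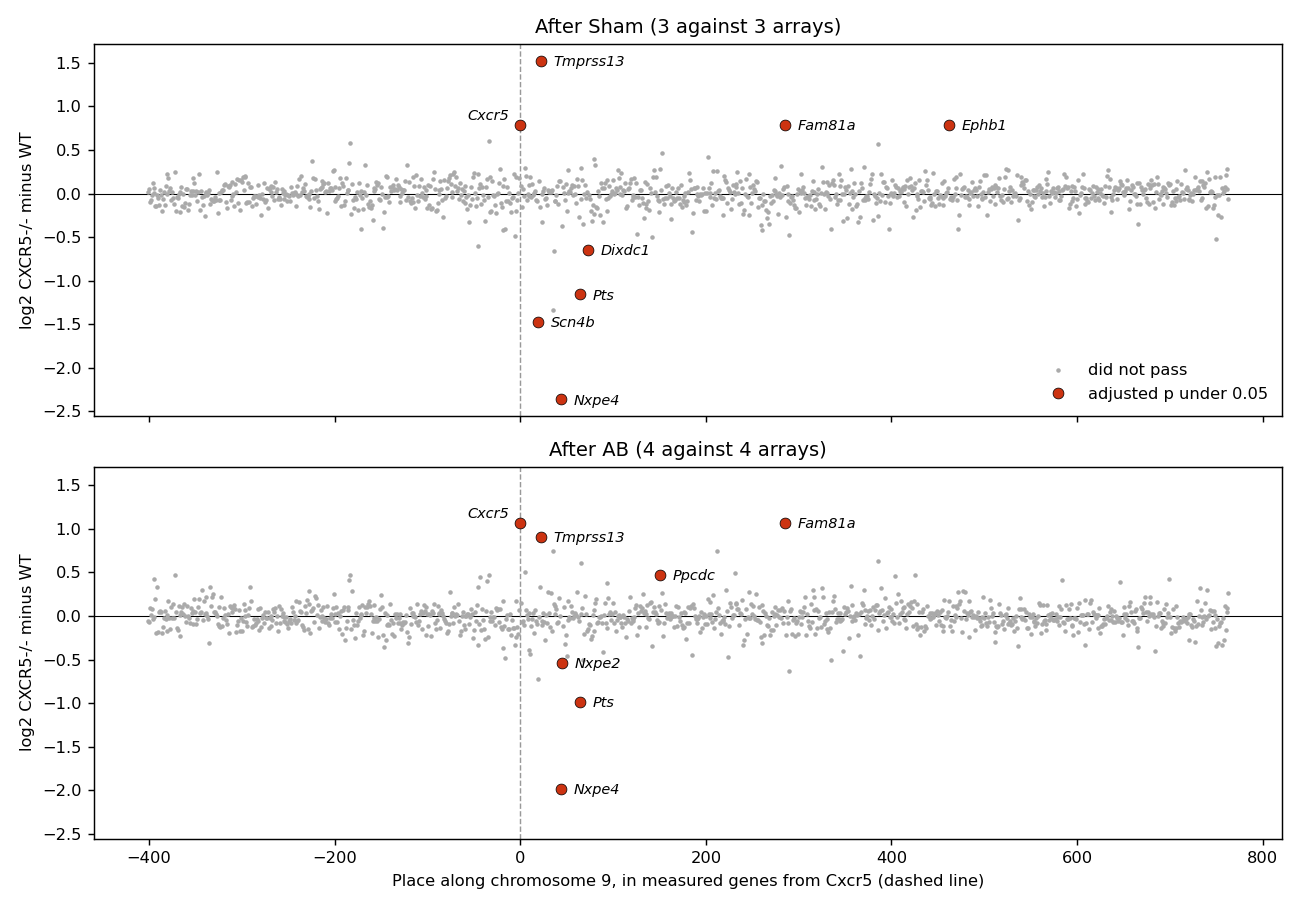
Log2 difference, CXCR5-/- minus WT (vertical axis), of each measured gene on chromosome 9 after Sham (upper panel) and after AB (lower panel), against its place in gene order from Cxcr5 (horizontal axis, dashed line at Cxcr5). Red points passed; all 8 genes that passed after Sham and 7 of the 9 that passed after AB are among them, most within 100 places of Cxcr5.

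Several other genes of chromosome 9 had small p values without passing after Sham. Sorl1, a sorting receptor of the LDL receptor family 34 places proximal to Cxcr5, was at 7.22, 7.52 and 7.40 in CXCR5-/- Sham and 6.64, 6.93 and 6.75 in WT Sham hearts (difference 0.60, SE 0.12, adjusted p = 0.14; 0.47 after AB). Gramd1b, which moves cholesterol from the plasma membrane to the endoplasmic reticulum, differed by -0.60 (SE 0.12, adjusted p = 0.19; -0.33 after AB). Nxpe2, the neighbour and paralogue of Nxpe4, differed by -0.37 and by -0.53 after AB, and passed after AB (adjusted p = 0.028). Probe sets of paralogues can share signal, which was not tested. Nt5e, the ecto-5-prime-nucleotidase CD73 that makes adenosine, differed by 0.57 and Tirap, an adaptor of Toll-like receptors, by 0.58.

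Using the mean of the Sham and AB genotype differences over all 14 arrays, a comparison added after the data were seen, 19 genes (0.0953%) passed. The count was 11 without CXCR5-/- Sham 2, CXCR5-/- Sham 3 or WT Sham 2. Of the 19 genes 16 lie on chromosome 9, comprising all 8 genes above, Sorl1 (0.53), Gramd1b (-0.47), Nt5e (0.60), Nxpe2 (-0.45), Pdzd3 (-0.44), Klhl31 (-0.45), Mto1 (-0.36) and Ppcdc (0.37). The other 3 were Gdf10 (0.46), a TGF-beta family ligand, Wdfy1 (-0.51) and Efcab7 (0.51). Gdf10 was at 6.66, 6.34 and 6.60 in CXCR5-/- Sham and 6.01, 6.01 and 6.11 in WT Sham hearts. Because the genotype and the ES cell strain of the targeted allele go together in every mouse, a difference due to loss of the receptor and one due to strain sequence carried along with Cxcr5 cannot be told apart here, and the same holds for strain differences within probe sequences.

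Substrain genes were looked at for the same reason. Nnt and Mmrn1, which are deleted in some C57BL/6 substrains, differed by 0.03 (95% confidence interval -0.34 to 0.40) and 0.08 (-0.23 to 0.38). Wdfy1 was at 6.16, 5.79 and 6.06 in CXCR5-/- Sham and 6.39, 6.47 and 6.67 in WT Sham hearts (difference -0.51, unadjusted p = 0.0016). Entpd4 was at 9.14, 9.15 and 9.13 against 8.77, 8.84 and 8.88 (difference 0.31, unadjusted p = 0.016). For both genes the Sham groups did not overlap and the AB difference had the same sign (-0.51 and 0.49). The substrain list held 6 measured genes, and none passed. Of these, 1 had all CXCR5-/- arrays above and 1 had them all below all WT arrays (16.7% each, beside 3.28% and 3.57% of all genes). Whether these genes reflect a substrain difference was not tested.

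Immune genes were described next, by 13 lists with 213 measured genes. Cxcr5 was the only member of these lists that passed. List medians ranged from -0.11 to 0.07, beside 0.01 over all genes. In bulk tissue, fewer cells of a type and less RNA per cell cannot be told apart.

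The ligand Cxcl13 was at 4.23, 3.81 and 3.69 in CXCR5-/- Sham and 3.41, 3.45 and 4.15 in WT Sham hearts. The groups overlapped, and the difference of 0.24 had a 95% confidence interval from -1.51 to 1.99. Ccl19, which with its receptor Ccr7 guides T cells and dendritic cells into lymphoid tissue, had the smallest p of the genes that did not pass. It was at 8.49, 7.78 and 8.16 in CXCR5-/- Sham and 7.15, 7.47 and 7.18 in WT Sham hearts, and did not pass (difference 0.88, SE 0.16, adjusted p = 0.080). It passed without CXCR5-/- Sham 2 (difference 1.06, adjusted p = 0.018). After AB the difference was -0.27. The mouse genome holds near-identical copies of Ccl19, and its other 3 probe sets differed by 0.16, 0.47 and 0.10, so the gene assignment is uncertain. Ccr7 differed by 0.04, Cxcl12 by -0.15 and Cxcr4 by -0.30 (unadjusted p = 0.23).

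B cell markers, the cells best known for CXCR5, numbered 18 measured genes. None had an unadjusted p under 0.05 and none separated the groups (over all genes, 3.28% had every CXCR5-/- array above every WT array and 3.57% had them all below). Their differences ran from -0.19 to 0.15 with a median of -0.03. Bank1, a B cell scaffold protein, was at 4.42, 4.50 and 4.67 against 4.77, 4.54 and 4.86, and Fcer2a, the low-affinity IgE receptor, differed by 0.15. The signalling chain Cd79a differed by 0.11 and the surface marker Ms4a1 by -0.12. T and NK cell markers had a median of 0.01 over 23 genes, from -0.16 (Ncr1) to 0.21 (Lat), with none at an unadjusted p under 0.05. The median 95% interval reached 0.29 to either side for the B cell list and 0.27 for the T and NK cell list. A difference of a single gene inside that range was not detectable. Larger ones could be missed too, since these intervals are not adjusted for the number of genes. The difference of smallest size that passed over all genes was -0.64 (Dixdc1). Most of these probe sets were dim, with 12 of 18 B cell and 18 of 23 T and NK cell markers at a log2 level below 5 and median levels of 4.68 and 4.58 for these lists.

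Of 24 macrophage and monocyte markers, 20 were lower on the arrays labelled CXCR5-/- (47.6% of all genes were), the median was -0.11, and none passed. Adgre1, the F4/80 antigen of tissue macrophages, was at 5.95, 6.10 and 6.19 in CXCR5-/- Sham and 6.41, 6.32 and 6.41 in WT Sham hearts, without overlap (difference -0.30, unadjusted p = 0.0099). Folr2, a folate receptor of resident macrophages, differed by -0.34 and the lipopolysaccharide co-receptor Cd14 by -0.26, and the groups overlapped for both. These 3 of 24 genes had an unadjusted p under 0.05 (2.38% of all genes did). Lyve1, a hyaluronan receptor, was at 7.98, 7.98 and 7.84 against 7.32, 7.79 and 7.81 (difference 0.30), also without overlap but in the other direction. On this list 1 gene had all CXCR5-/- arrays below and 1 had them all above all WT arrays. Each is 4.17% of the list, near the 3.57% and 3.28% of all genes. The list median stayed between -0.16 and -0.12 when single Sham arrays were left out, and it was 0.04 after AB. Genes of antigen presentation by MHC class II had a median of -0.11 over 10 genes (0.26 after AB), from Ctss at -0.23 to H2-Ob at 0.17, with none separated. Without CXCR5-/- Sham 2 that median was -0.01 and without CXCR5-/- Sham 1 it was -0.23.

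None of the 25 measured interferon response genes passed. Of these, 21 were lower (47.6% of all genes were) and 5 had an unadjusted p under 0.05 (2.38% of all genes did). For 7, all CXCR5-/- arrays were below all WT arrays (28%, beside 3.57% of all genes). Shares of this list, here and below, are descriptions, since its members were measured on the same arrays and are not independent. Ifit1 and Ifit3 are induced by interferon, and Ifit1 encodes a protein that binds viral RNA. Ifit1 was at 5.37, 5.29 and 5.58 in CXCR5-/- Sham and 5.75, 5.78 and 5.91 in WT Sham hearts (difference -0.40, SE 0.10, unadjusted p = 0.00075). Ifit3 was at 5.50, 5.24 and 5.55 against 5.97, 5.69 and 5.74 (difference -0.37, SE 0.14). Rtp4, Oas1a, Mx1, Irf7 and Eif2ak2 also did not overlap and differed by -0.35, -0.25, -0.18, -0.16 and -0.14. The 4 genes that were not lower were Stat2, Gbp3, Irgm1 and Gbp4, at 0.03 to 0.15.

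The interferon list median was -0.11 and ranged from -0.15 without WT Sham 1 to -0.06 without WT Sham 3, so it kept its sign. The members' median deviation from the WT Sham mean was -0.16, -0.05 and -0.12 in CXCR5-/- and -0.06, 0.00 and 0.09 in WT hearts, and CXCR5-/- Sham 2 overlapped with WT Sham 1. After AB the list median was 0.11, 21 of 25 genes were higher and none passed. For 6 of the 25 genes the Sham difference and the AB difference differed at an unadjusted p under 0.05, beside 2.88% of all genes, and none passed that test. Cxcl10, an interferon-induced chemokine listed with the inflammatory chemokines, was at 4.80, 4.60 and 4.91 in CXCR5-/- Sham and 5.40, 5.51 and 5.03 in WT Sham hearts (difference -0.54, unadjusted p = 0.0063; 0.37 after AB). The other 26 genes of the inflammatory chemokine list had differences between -0.26 and 0.24.

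The upstream sequences of Ifit1 (chr19:34640639-34640888) and Ifit3 (chr19:34583279-34583528), both on the plus strand of GRCm38.p6, are shown because these genes had the smallest p of the list. Capitals mark matches on either strand to GAAA, any 2 bases and GAAA again, the core of the interferon-stimulated response element.

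Ifit1: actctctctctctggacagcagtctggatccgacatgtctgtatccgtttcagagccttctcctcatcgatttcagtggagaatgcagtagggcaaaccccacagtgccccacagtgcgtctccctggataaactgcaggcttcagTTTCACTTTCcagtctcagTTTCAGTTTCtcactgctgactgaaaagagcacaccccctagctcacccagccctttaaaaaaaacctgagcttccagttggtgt

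Ifit3: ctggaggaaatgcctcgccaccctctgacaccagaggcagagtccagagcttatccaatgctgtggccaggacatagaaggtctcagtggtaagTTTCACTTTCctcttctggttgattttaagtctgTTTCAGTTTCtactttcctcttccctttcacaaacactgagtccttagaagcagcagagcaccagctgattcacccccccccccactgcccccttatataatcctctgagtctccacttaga

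Each had 2 matches, both on the reverse strand. Of the 16 interferon response genes with a promoter in the RefSeq table, 8 held such a match within 250 bases in any of their promoters. Of all listed promoters 2.98% did, a share counted by promoter and not by gene. The list was chosen as genes that respond to interferon, so its share is no result about the Sham difference. None of the 6 listed genes that passed after Sham held a match, and so few genes give no contrast with that share. The match shows a property of the reference sequence, and binding was not measured.

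**Figure D3:**
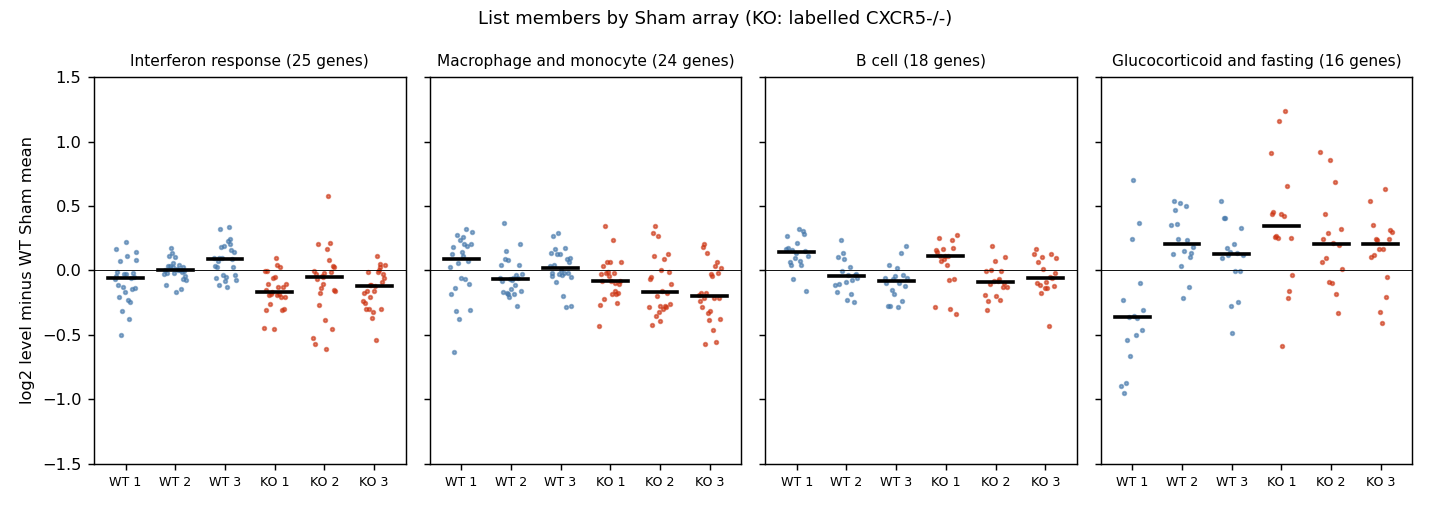
Log2 level minus the WT Sham mean of the same gene (vertical axis) for the members of 4 lists on each Sham array (horizontal axis). Each point is 1 gene and black bars are array medians. Interferon response medians are lowest for CXCR5-/- Sham 1, B cell medians overlap between genotypes, and WT Sham 1 stands below the other arrays for the glucocorticoid and fasting list.

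Among neutrophil markers, Lcn2, the iron-sequestering lipocalin 2, was at 6.82, 6.43 and 6.58 in CXCR5-/- Sham and 5.69, 6.15 and 6.27 in WT Sham hearts (difference 0.57, unadjusted p = 0.011; 0.78 after AB). The rest of that list of 14 lay between -0.18 and 0.22, with Mmp8 highest. Most of these probe sets were dim, with 13 of the 14 at a log2 level below 5, a median level of 4.15 and Mmp8 at 2.85. Complement genes C7 (0.42) and C6 (-0.34) differed in opposite directions, and their list of 19 had a median of -0.01.

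Over 10 metabolic lists with 243 measured genes no gene passed, and the list medians lay between -0.05 and 0.05. Fatty acid uptake and oxidation had a median of -0.04 over 30 genes, with Angptl4, an inhibitor of lipoprotein lipase, at -0.36 and Acot1, an acyl-CoA thioesterase, at -0.26. Angptl4 was at 6.47 on WT Sham 1 and between 5.18 and 5.67 on the other Sham arrays. Glucose transport and glycolysis had a median of 0.01 over 28 genes, from Fbp2 at -0.32 to Phka1 at 0.26.

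The tricarboxylic acid cycle list had a median of -0.02 over 18 genes. Its lowest member was Sdhd, a membrane anchor of succinate dehydrogenase and a chromosome 9 gene 68 places distal to Cxcr5. Sdhd was at 10.56, 10.42 and 10.38 in CXCR5-/- Sham and 11, 10.67 and 10.74 in WT Sham hearts (difference -0.35, unadjusted p = 0.034; -0.50 after AB). Fh1, fumarate hydratase, differed by -0.11. Complex I genes had a median of -0.02 over 35 genes and genes of complexes III to V -0.03 over 37 genes, with 28 and 30 members lower and none at an unadjusted p under 0.05. Ndufs6 (0.26) and Ndufb10 (-0.14) had the smallest p of complex I, and Cox8a (0.14) and Cox7a2 (-0.12) of the other complexes. Without WT Sham 1 the 2 list medians were 0.04 and 0.04. Bdh1, the mitochondrial enzyme that interconverts the ketone bodies, was at 9.29, 9.31 and 9.58 against 8.94, 8.87 and 9.21 (difference 0.38, unadjusted p = 0.033), and Gatm, of creatine synthesis, differed by -0.22. Among 28 redox genes the antioxidant enzyme Nqo1 differed by -0.21 without overlap and the metallothionein Mt2 by 0.85.

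The heavy chains of cardiac myosin, Myh6 and Myh7, differed by 0.00 and 0.01 (95% confidence intervals -0.18 to 0.19 and -0.40 to 0.42). Of the 184 measured genes on 10 contractile lists only Scn4b passed, and list medians lay between -0.01 and 0.04. Acta1, the skeletal alpha-actin that the heart re-expresses under load, was at 11.23, 10.94 and 11.37 in CXCR5-/- Sham and 10.94, 10.70 and 10.86 in WT Sham hearts, with CXCR5-/- Sham 2 and WT Sham 1 next to each other (difference 0.35, unadjusted p = 0.014). Lmod3, an actin nucleator, differed by -0.25, and Mylk3, the cardiac myosin light chain kinase, by -0.26.

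The natriuretic peptide genes had differences of opposite sign, and neither passed. Nppa was at 11.75, 11.45 and 11.15 in CXCR5-/- Sham and 11.24, 10.91 and 10.78 in WT Sham hearts (difference 0.47, unadjusted p = 0.0038; 0.09 after AB). Nppb was at 9.39, 9.01 and 9.41 against 10.12, 9.24 and 9.70 (difference -0.42, unadjusted p = 0.074). The groups overlapped for both genes. Nppa is also an atrial gene, and the arrays highest in Nppa within each genotype were those highest in Myl7, described below. The part of atrial tissue in the Nppa difference was not tested.

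Ion channel genes other than Scn4b did not pass. The other 8 measured sodium channel genes differed by -0.08 (Scn2b) to 0.21 (Scn7a). Cacna1g, a T-type calcium channel of the conduction system, was at 6.86, 6.79 and 6.77 in CXCR5-/- Sham and 6.29, 6.33 and 6.27 in WT Sham hearts, with a difference of 0.51 (SE 0.13, unadjusted p = 0.0012) and -0.02 after AB. Cacna1h, its relative, differed by 0.30. The conduction system list, which includes Cacna1g and Cntn2 (0.30), had a median of 0.09 over 13 genes, which was 0.02 without CXCR5-/- Sham 1 and 0.15 without CXCR5-/- Sham 3. Of 24 potassium channel genes, Kcnj12, an inward rectifier, differed by 0.25 and Kcnd2, of the transient outward current, by -0.43.

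Small leucine-rich proteoglycans, the collagen-binding matrix proteins that the study followed after AB, had a median of 0.01 over 17 genes after Sham and none passed. Fmod was at 6.53, 6.18 and 5.72 in CXCR5-/- Sham and 6.08, 5.86 and 5.30 in WT Sham hearts, with overlap (difference 0.40, 95% confidence interval -0.12 to 0.92). Lum differed by -0.22 and by 0.07 without WT Sham 1, where it was highest (8.62). Bgn differed by 0.08, Dcn by -0.04 and Podn by 0.20. Collagens had a median of 0.08 over 24 genes and other matrix genes 0.08 over 32 genes, with none passing and none at an unadjusted p under 0.05. Of the other matrix genes, 5 had all CXCR5-/- arrays above all WT arrays (15.6%, beside 3.28% of all genes), and none all below. Of the collagens, 2 had them all above and 1 all below (8.33% and 4.17%, beside 3.28% and 3.57% of all genes). These shares are descriptions.

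**Figure D4:**
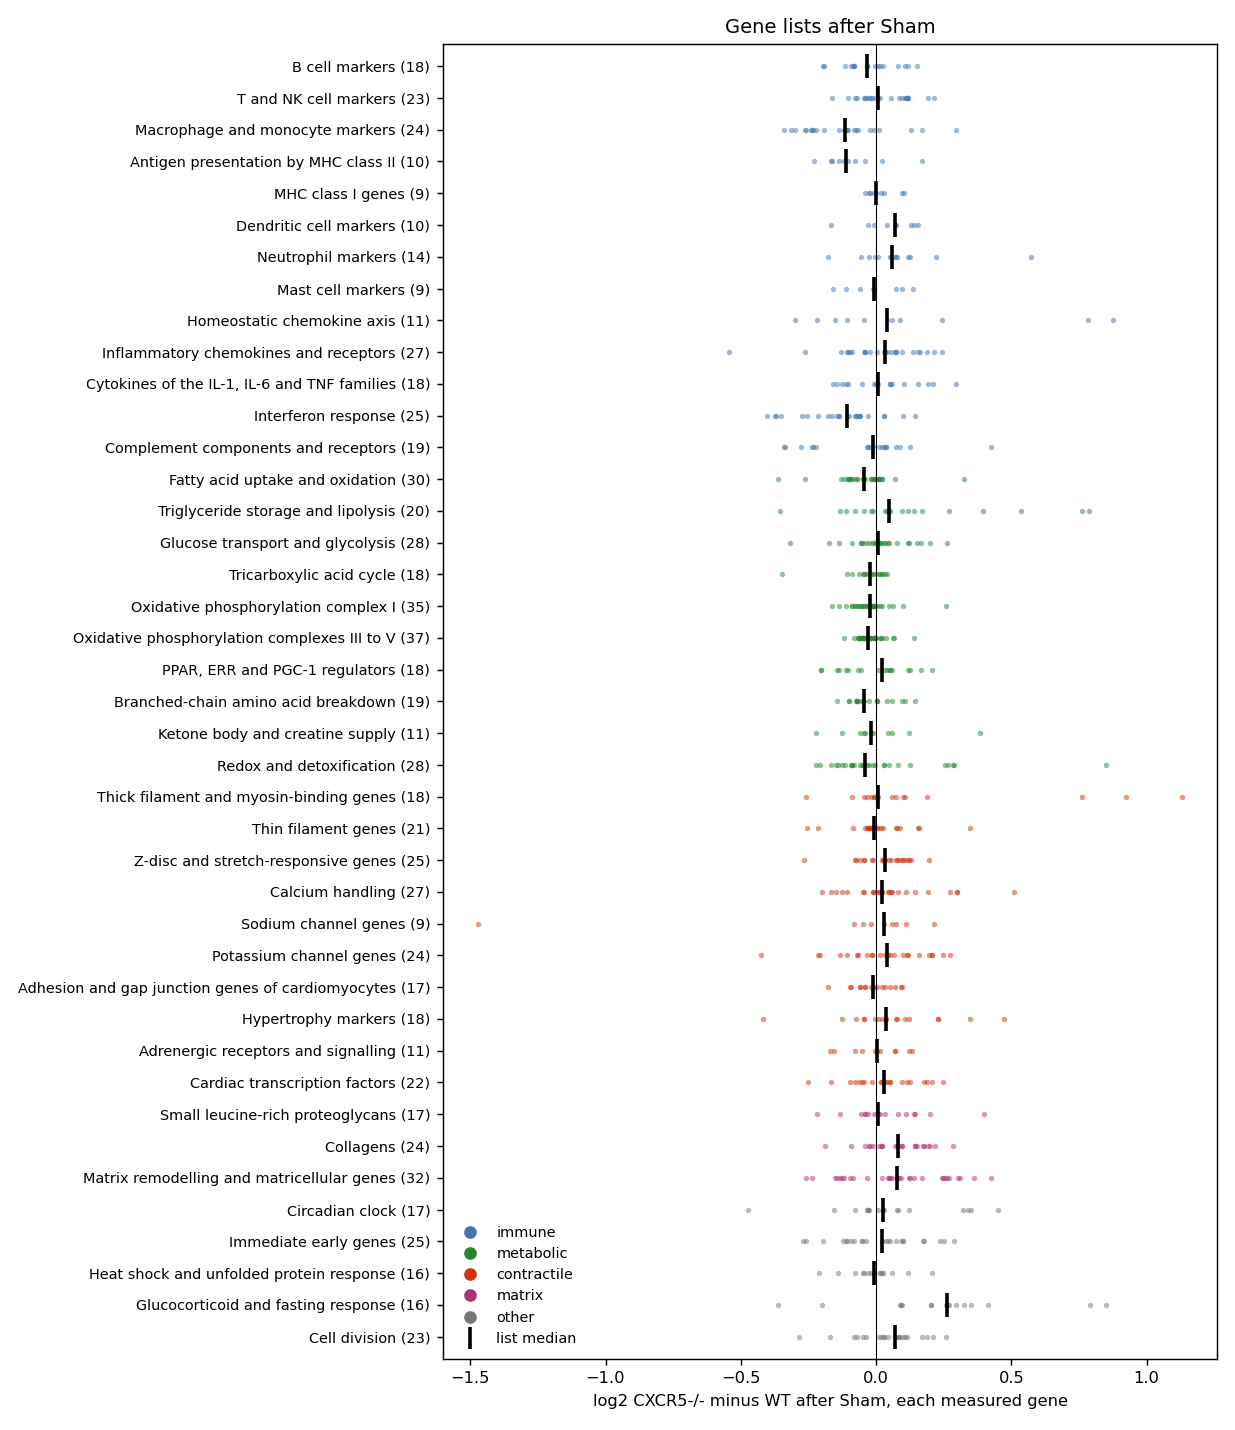
Log2 difference after Sham, CXCR5-/- minus WT (horizontal axis), of each measured gene (points) on the 41 immune, metabolic, contractile, matrix and other lists (vertical axis, number of genes in brackets). Black bars are list medians, which lie between -0.11 and 0.08 for every list but the glucocorticoid and fasting list at 0.26. Scn4b is the isolated point at -1.47.

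Of the remaining programmes (clock, immediate early, heat shock, cell division, and glucocorticoid and fasting response) no gene passed. The glucocorticoid and fasting list had the highest median of these, with 14 of 16 genes higher (52.4% of all genes were) and a median of 0.26. The glucocorticoid receptor co-chaperone Fkbp5 was at 8.08, 8.09 and 7.72 in CXCR5-/- Sham and 6.28, 7.53 and 7.71 in WT Sham hearts, and Mt2 was at 10.48, 9.93 and 9.87 against 8.74, 9.75 and 9.24. WT Sham 1 was the lowest array for both, and Klf9, a target of the glucocorticoid receptor, was at 8.43 on that array and between 8.91 and 9.08 on the others. Angptl4, the lowest member of the list at -0.36, went the other way and was highest on WT Sham 1 (6.47). Without WT Sham 1 the list median was 0.05. After AB the list median was 0.31, and the arrays of both genotypes overlapped. The members' median deviation from the WT Sham mean was 0.09, 0.29, 0.34 and -0.12 in CXCR5-/- AB hearts. In WT AB hearts it was 0.13, -0.04, -0.27 and -0.39.

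Transcripts of other tissues stood out on single arrays. Albumin (Alb), made by the liver, was at 3.98, 5.17 and 5.02 in CXCR5-/- Sham and at 9.14, 4.39 and 8.68 in WT Sham hearts, so that WT Sham 1 and WT Sham 3 were high and WT Sham 2 was as low as the CXCR5-/- arrays. Apoa1 followed the same pattern at 5.14, 4.95 and 5.25 against 7.20, 5.07 and 7.09, and so did Apoa2 (difference -0.93) and Cps1 (-0.74). Of 17 liver genes 16 were lower and the list median was -0.66 (0.62 after AB), with -1.04 without WT Sham 2 and -0.45 without WT Sham 1. The summed linear level of the list was 617 to 745 in CXCR5-/- and 601 to 1880 in WT Sham hearts. No liver gene passed. Apoa1 and Apoc3 (-0.66) lie on chromosome 9. Cyp3a25, a hepatic cytochrome P450, had one of the smallest p values of the lower genes. It was at 3.02, 2.87 and 3.03 against 4.13, 3.61 and 3.29 (difference -0.70, unadjusted p = 0.00081; 0.34 after AB). Its probe set was dim, with a mean level of 3.30 over all arrays, and unlike Alb it was higher on WT Sham 2 than on WT Sham 3. With the Alb level as a covariate 3 of the 8 genes passed, Nxpe4, Tmprss13 and Scn4b. The differences of the other 5 were of similar size in that fit, at -1.17 for Pts, 0.80 for Ephb1, -0.69 for Dixdc1, 0.75 for Fam81a and 0.74 for Cxcr5.

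The atrial light chain Myl7 was at 9.68, 8.82 and 6.93 in CXCR5-/- Sham and 9.09, 6.10 and 6.85 in WT Sham hearts, high on CXCR5-/- Sham 1, CXCR5-/- Sham 2 and WT Sham 1. The other atrial light chain, Myl4, and Mybphl had the same 3 arrays highest. Of 17 atrial genes 14 were higher, with a median of 0.19, and none passed. The summed linear level was 4243 to 8019 in CXCR5-/- and 3680 to 5819 in WT Sham hearts. Bmp10, an atrial growth factor, was low on every Sham array (3.02 to 3.31). Adipocyte genes leaned the same way, with 12 of 15 higher, a median of 0.12 (0.23 without WT Sham 1) and Plin1 (0.39) and Cidec (0.54) as those of smallest p. With atrial markers as a covariate 7 of the 8 genes passed, all but Cxcr5. With the 3 Sham arrays of highest Myl7 left out, which leaves 1 CXCR5-/- and 2 WT arrays, Nxpe4 alone passed. The differences were then 1.31 for Tmprss13, -1.54 for Scn4b, -1.11 for Pts, 0.98 for Ephb1, -0.64 for Dixdc1, 0.76 for Fam81a and 0.62 for Cxcr5. The ventricular markers Myh6, Myl2, Myl3, Tnnt2 and Actc1 were between 12 and 13.06 on every Sham array and differed by -0.04 to 0.00 between genotypes.

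**Figure D5:**
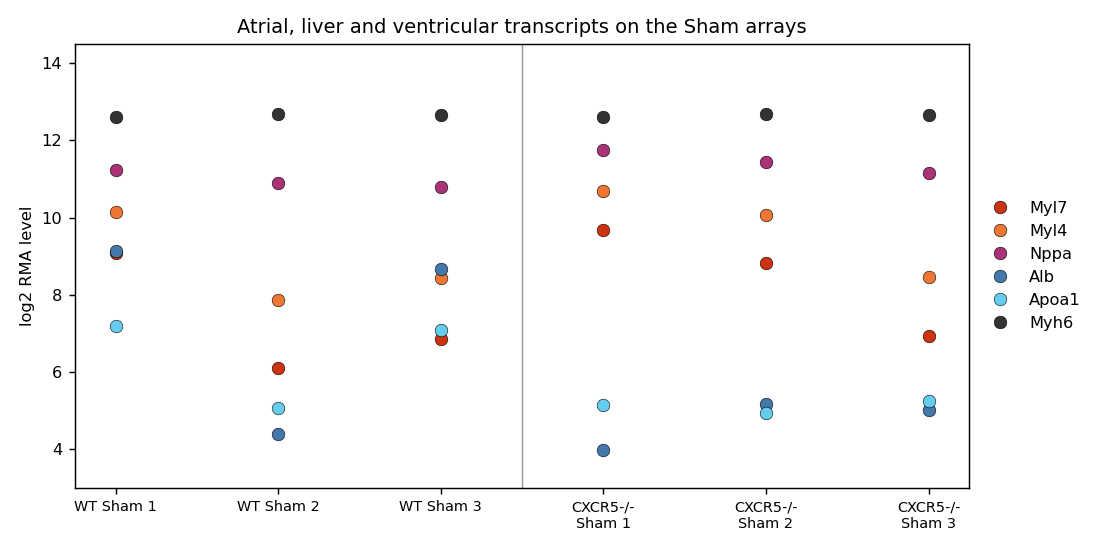
Log2 RMA level (vertical axis) of the atrial genes Myl7, Myl4 and Nppa, the liver genes Alb and Apoa1 and the cardiac myosin gene Myh6 on each Sham array (horizontal axis, 1 point per gene and array). Alb and Apoa1 are high on WT Sham 1 and 3, Myl7 and Myl4 on WT Sham 1 and CXCR5-/- Sham 1 and 2, and Myh6 lies between 12.61 and 12.68 on all 6.

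Among the remaining genes of smallest p that did not pass, Nuf2, a kinetochore protein, differed by 0.44 and Iqcn by 0.38. Fscb differed by -0.45, Cyp4a12b, a fatty acid hydroxylase, by -0.43 and Cpxm2, a carboxypeptidase-like matrix protein, by -0.51. None of these had an adjusted p under 0.9, and their AB differences were 0.30, -0.21, 0.14, 0.00 and -0.15.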

How the data were processed

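Groups follow the sample labels. Total RNA of the left ventricle was hybridised by the authors to Affymetrix mouse ST 1.0 arrays, 1 per mouse. The authors deposited log2 values of all arrays after RMA, and no RMA version or setting is stated. The number of arrays limits the precision. Of 34760 probe sets, 21640 had 1 symbol, 1321 several and 11799 none listed. Probe sets were named by the platform annotation, updated by gene ID through RefSeq (GRCm38.p6, 21553 matched), which also gave gene order. Genes with several probe sets (954 of 19937) were represented by the one with the highest mean over 14 arrays.

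limma 3.58.1 in R 4.3.3 (lmFit, contrasts.fit, eBayes) was fitted to all 14 arrays with 1 mean per group (10 residual and 7.13 prior degrees of freedom), two-sided, with Benjamini-Hochberg adjustment over all genes at 0.05. Fits were tested on simulated data. Gene lists (53) were described by counts and medians. The comparison, lists and named genes were chosen with earlier results of these data known. Named were Cxcr5, Cxcl13, Myl7 and Alb, every gene that passed after Sham, the 8 others of smallest p in each direction, the passing members of each described list or else its 2 of smallest p, Nppa, Nppb, Myh6, Myh7, Fmod, Lum, Bgn, Dcn, Nnt and Mmrn1; predicted, olfactory, vomeronasal and small RNA genes were passed over, and other members were named after their values were seen. Alternatives were other variance models, array weights, significance analysis of microarrays (20 permutations, q of 0.05), a filter below the 30th percentile of level, renormalization, other probe set rules, the 6 Sham arrays alone, the replicate block, tissue covariates and single arrays left out; leaving out the 3 Sham arrays of highest Myl7 and averaging both genotype differences were chosen after seeing the data.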

Additional observations from a re-analysis of the deposited data

Results flagged for a closer look

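One probe set without a single gene symbol, and so outside the named comparison, passed among all probe sets: probe set 10418205, listed with several symbols, was at 7.82, 7.69 and 7.49 in CXCR5-/- Sham and 9.04, 8.83 and 8.89 in WT Sham hearts. Its log2 difference was -1.25 (adjusted p = 0.010 in limma over all 34760 probe sets) and -1.70 after AB (adjusted p = 7.8e-05). Of 13120 probe sets with several symbols or none it was the only one that passed after Sham. In 40 groups of 4 AB arrays that were looked at for a single distant array, none was found.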

How the results depend on the processing

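After Sham the 8 genes that passed became 6 to 11 under 11 other settings, 39 with estimated array weights (15 higher and 24 lower), 5 with all probe sets tested, 3 with Alb as a covariate and 1 without the 3 Sham arrays of highest Myl7, and 3 to 8 when single arrays were left out. After AB the 9 genes became 21 with the replicate block and 4 to 34 with single arrays left out. The mean of both differences, 19 genes, gave 48 with array weights, 27 with the replicate block and 11 to 23 with single arrays left out. The test of the Sham against the AB difference gave 0 genes under every setting run. With the replicate block the Sham count was 8 in all arrays and 7 in the Sham arrays alone. Same-number correlations were 0.45, 0.026 and 0.17, where CXCR5-/- Sham 1 and 3 correlated best with their own number and CXCR5-/- Sham 2 with WT Sham 3. So few values do not settle whether the replicate numbers pair the samples. Significance analysis of microarrays called 11 genes, 7 of the 8 among them and not Fam81a. Cxcr5 lay below the filter on dim probe sets and has no value there. Of 2369 values of 82 named genes, 2276 kept direction and call, 50 lost the call, 11 gained one and 32 changed sign, and 45 of 1325 list medians moved beyond the spread between arrays. Sign changes were in genes that did not pass: Cxcl13 was -0.040 with Alb as a covariate and Dcn 0.036. With array weights Myh6 was -0.011, Myh7 -0.067, Bgn -0.038 and Nnt -0.022, and with arrays centred on their median Myh6 was -0.0089 and Myh7 -0.0032. With atrial markers as a covariate Myh6 was -0.014 and Nnt -0.018. Without the 3 Sham arrays of highest Myl7, Cxcl13 was -0.11, Myh6 -0.00772, Myh7 -0.13, Bgn -0.099, Nnt -0.072, Mmrn1 -0.052, Mmp8 -0.052 and Podn -0.070. With single arrays left out Myh6 ranged from -0.014 to 0.020, Myh7 from -0.038 to 0.088, Lum from -0.41 to 0.071, Bgn from -0.027 to 0.14, Nnt from -0.070 to 0.098, Mmrn1 from -0.064 to 0.18 and Cox7a2 from -0.21 to 0.012. The cause of these changes was not tested. With 3 arrays per group, a difference under 0.25 lay inside the 95% interval of the median gene.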
